A study of Mus musculus with 24 samples.

Results

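The 10 genes described here encode proteins of glucose breakdown and of the response to low oxygen: Slc2a1, Hk2, Pfkp, Aldoa, Pgk1, Pkm, Ldha, Pdk1, Vegfa and Bnip3. They were chosen by name with earlier results of these data known, and so were the gene lists used beside them. Shares called among them, set beside those of all genes, are therefore descriptions and not tests of the set. All 10 were matched by Ensembl identifier among the 55359 genes of the count table. The cells were oligodendrocytes from the cortices of C57Bl6J mouse pups 5 to 7 days old, sorted with magnetic beads for O4, a surface lipid antigen of immature oligodendrocytes, and differentiated in culture for 3 days with triiodothyronine. Ethanol was then present for 3 days at 30 mM in experiment 1 or at 10 mM in experiment 2, and each experiment had its own wells at 0 mM, giving 4 groups of 6 wells. Every group shared the sort, the hormone and the strain. Ethanol wells and control wells stood in separate incubators, and the effects of ethanol and of the incubator cannot be told apart. Each experiment was also its own labelled batch, which cannot be told apart from the dose. The labels call the wells biological replicates, and how many pups supplied them is not given in the sources used here.

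Glycolysis converts glucose to pyruvate in the cytosol and yields ATP without oxygen. Lactate dehydrogenase turns pyruvate into lactate, whereas pyruvate dehydrogenase feeds it to the mitochondria. When oxygen is scarce, the hypoxia-inducible factors HIF-1α and HIF-2α escape degradation, pair with ARNT and raise transcription of many glycolytic genes, of Vegfa and of Bnip3. Oligodendrocytes are known for active glycolysis and for passing lactate to the axons they wrap through monocarboxylate transporters.

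RNA was measured by 3′ tag sequencing, which counts fragments from the 3′ ends of transcripts, so a count does not grow with transcript length and no length scaling was applied. Totals ran from 1184609 to 1817028 counts per well. Levels are given as CPM, the count divided by the well's total and expressed per 1e+06 counts, scaled between wells by edgeR's TMM method. All 10 markers of mature oligodendrocytes were detected in every group, and their summed level had medians of 8019 CPM in the controls and 9873 CPM at 30 mM in experiment 1, and of 7826 and 8958 CPM in experiment 2. Markers of astrocytes, microglia, fibroblasts and mural cells were detected as well and differed between groups, as given below. Markers of neurons and of oligodendrocyte precursors were also detected. These are bulk samples, so fewer cells of a type and less RNA per cell cannot be told apart. The well labelled 30 mM replicate 1 stood apart with 16433 CPM of mature oligodendrocyte markers, against 9595 to 10076 CPM in the other 5 wells of its group. The fits at 30 mM were repeated without it, and those values stand beside the results.

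Levels of the 10 genes spanned a wide range. Pkm, the pyruvate kinase that makes ATP and pyruvate in the last step of glycolysis, was highest, with 1290 CPM ± 79.8 (SD, n = 6) in the controls of experiment 1. In those wells 47 of the genes tested in any comparison had a higher mean. Aldoa, the aldolase that splits fructose bisphosphate, followed with 686 CPM ± 52.1 (SD, n = 6). Ldha, the lactate dehydrogenase subunit A, had 501 CPM ± 10.8 (SD, n = 6), and Pfkp, a subunit of the committing phosphofructokinase step, had 154 CPM ± 11.3 (SD, n = 6). This order, Pkm above Aldoa above Ldha above Pfkp, held in all 4 groups with no overlap between neighbouring genes in any group.

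Below these 4 genes the order was less fixed. Hk2, the inducible hexokinase that traps glucose as glucose 6-phosphate, lay below Pfkp in all 6 wells of both groups of experiment 1. In experiment 2 Pfkp was above Hk2 in 0 of 6 control wells and 1 of 6 wells at 10 mM, although the ranges of the genes overlapped. Slc2a1, the glucose transporter GLUT1, averaged 66.0 CPM in the controls of experiment 1 and 55.9 CPM in those of experiment 2. Pdk1, a kinase that switches off pyruvate dehydrogenase, averaged 30.9 and 37.8 CPM in the same groups, and Vegfa, a growth factor for blood vessels, 33.6 and 26.4 CPM. Pdk1 was above Vegfa in 2 of 6 control wells and 3 of 6 ethanol wells of experiment 1, and in 6 of 6 and 5 of 6 wells of experiment 2. The ranges of these genes overlapped in every group.

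Pgk1 and Bnip3 were close to the limit of detection. Pgk1, phosphoglycerate kinase of the ATP-making middle step, had 1 to 13 counts per well, and Bnip3, a mitochondrial receptor for mitophagy and cell death, had 1 to 10. Mean levels of Pgk1 were 5.66 CPM ± 2.07 (SD, n = 6) and 4.19 CPM ± 2.18 (SD, n = 6) in the controls and at 30 mM, and 3.09 and 3.20 CPM in the controls and at 10 mM of experiment 2. Those of Bnip3 were 2.94, 4.20, 2.97 and 2.27 CPM in the same order. A limit of 3 counts corresponds to 1.67 to 2.50 CPM in these wells. The ranges of both genes overlapped in every group.

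Near-identical copies exist for both of these genes. Over 1255 bases the Pgk1 transcript matches that of Pgk1-rs7 with 100% identity, and 3 annotated genes match it in all. For Bnip3 the longest of 3 matches is to Gm16439, over 564 bases with 98.9% identity. Those copies had 0 counts in the 24 wells, against 139 counts for Pgk1 and 106 for Bnip3 over the same wells. Among the other glycolysis genes Pgam1, the phosphoglycerate mutase, had 183 counts over 24 wells and is 100% identical to Pgam1-ps2 over 765 bases. How the counting treated reads that fit more than 1 gene is not given in the sources used here, and its part in these low counts was not tested. The values of Pgk1, Bnip3 and Pgam1 are therefore uncertain.

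**Figure D1:**
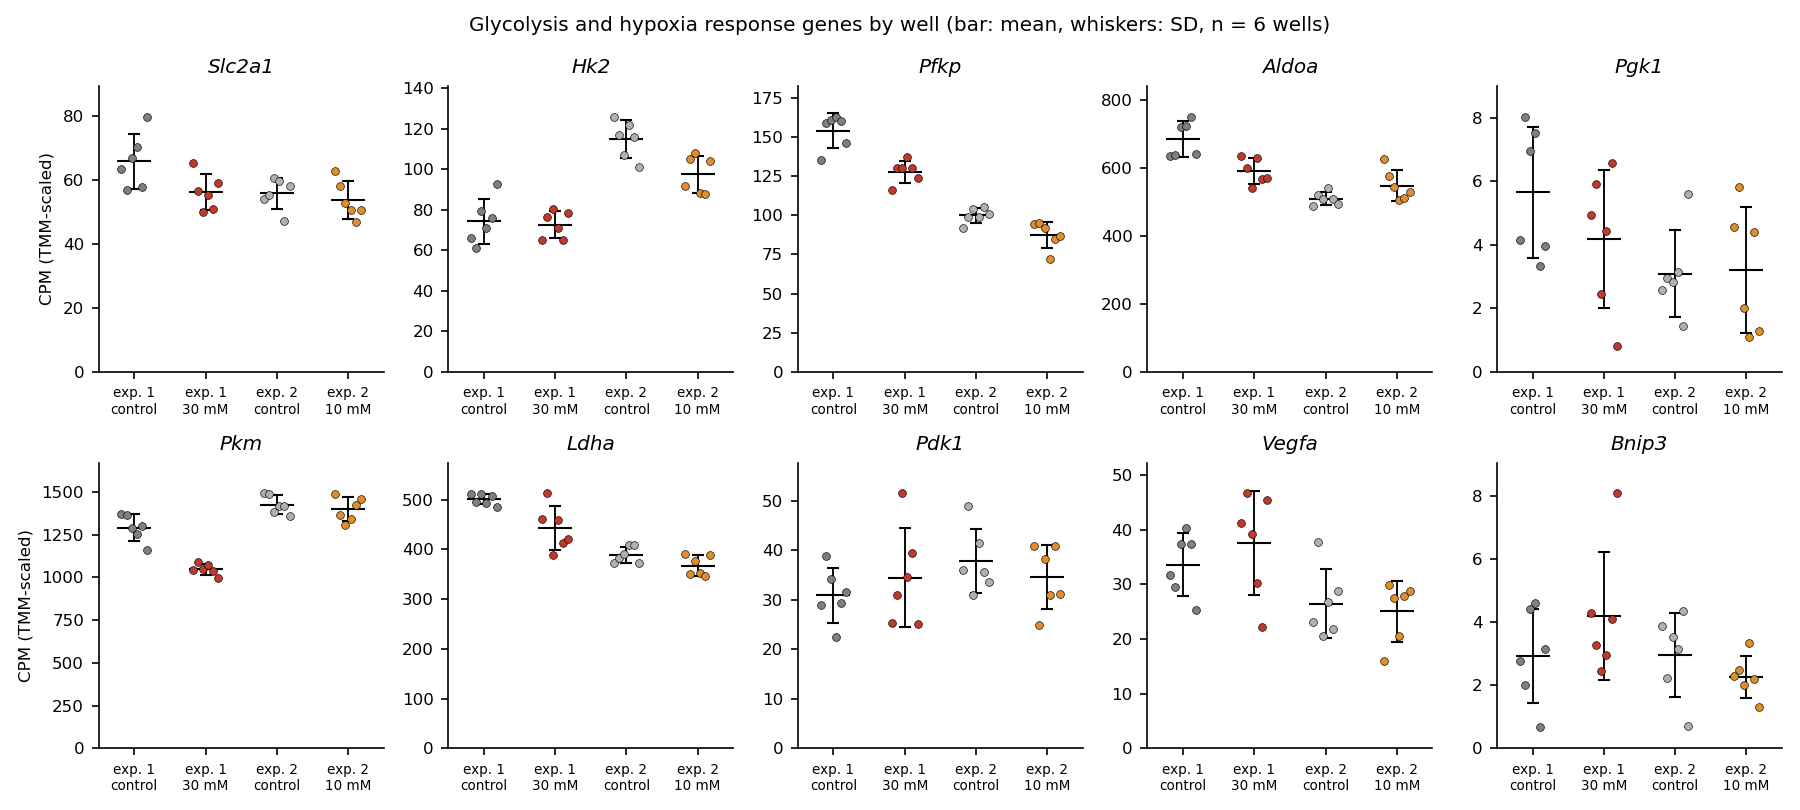
Level of each of the 10 genes in CPM (vertical axis, starting at 0, with its own scale for each gene) in every well of the 4 groups, with the mean as a bar and the SD as whiskers (n = 6 wells). At 30 mM the Pkm wells sit between 999 and 1092 CPM, all below the control wells of the same experiment, whereas Pgk1 and Bnip3 stay under 10 CPM in every well.

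Promoter sequences are shown for Pkm, Aldoa and Pfkp, which were lower together at 30 mM, and for Ldha, whose change had the same sign. Capitals mark the core that HIF dimers bind, searched as ACGTG and GCGTG on both strands, where an overlap of both strands makes 1 longer run of capitals. Sequences come from RefSeq's table for GRCm38.p6 and are written 5′ to 3′ along the gene, and end before the start. The Pkm promoter held 2 matches, and 30 bases around the one before the start are shown.
Aldoa, chr7:126799255-126799504, minus strand: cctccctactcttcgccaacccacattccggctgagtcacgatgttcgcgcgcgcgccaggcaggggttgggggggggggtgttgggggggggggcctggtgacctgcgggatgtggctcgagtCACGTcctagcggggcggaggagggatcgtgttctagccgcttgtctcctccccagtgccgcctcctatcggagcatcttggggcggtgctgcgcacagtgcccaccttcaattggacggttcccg
Pfkp, chr13:6648778-6649021, minus strand: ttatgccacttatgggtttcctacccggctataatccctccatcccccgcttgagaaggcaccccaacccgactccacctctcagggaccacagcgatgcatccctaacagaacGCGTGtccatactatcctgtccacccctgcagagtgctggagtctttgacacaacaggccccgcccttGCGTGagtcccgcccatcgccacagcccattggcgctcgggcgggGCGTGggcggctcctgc
Ldha, chr7:46845554-46845803, plus strand: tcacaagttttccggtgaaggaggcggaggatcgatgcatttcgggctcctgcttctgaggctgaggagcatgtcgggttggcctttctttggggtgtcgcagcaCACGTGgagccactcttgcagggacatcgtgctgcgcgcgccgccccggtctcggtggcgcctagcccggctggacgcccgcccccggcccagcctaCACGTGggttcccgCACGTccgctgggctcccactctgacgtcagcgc
Pkm, chr9:59657139-59657168, plus strand: cctccgatccggtCACGTccgcgccgcagc

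The table holds 250 bases before and 50 bases after each start, and 16 promoters belong to the 10 genes. The core was present in 12 of these 16 promoters (75.0%), against 43.8% of all 32851 promoters in the table. The list was made of genes known for glycolysis or the low-oxygen response, so the higher share is no independent evidence. Overlapping Aldoa promoters among the 12 hold the same match. All 10 genes had at least 1 promoter with it, compared with 46.7% of 27025 genes. Vegfa, Pkm, Aldoa and Pdk1 each also had a promoter without it. For Vegfa, Pkm and Aldoa that was the promoter furthest upstream, and their matches belonged to starts further downstream within the gene. Whether those starts were used in these cells was not tested. With 16 promoters for 10 genes, against 32851 for 27025, the 10 genes had more promoters each in which to hold the core. The median GC content was 65.2% for the 16 promoters and 52.7% for all, and its part in the difference was not tested. Ldha carried 7 matches in 1 of its promoters, Bnip3 5 and Pfkp 4. A run of CACGTG, found in the Ldha and Bnip3 promoters, holds the core on both strands and counts as 2 matches. Slc2a1, Hk2, Pdk1 and Pgk1 had 2 each in the promoters that held any, as did 1 promoter each of Pkm and Vegfa. A match is a string of letters and says nothing of binding in these cells.

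At 30 mM, 3 of the 8 genes that could be tested were lower than in the control wells of experiment 1, and none of the 8 was called higher. Pkm fell by 18.3%, Pfkp by 16.7% and Aldoa by 13.3%. In the same comparison 9.67% of all 13235 genes tested passed edgeR's quasi-likelihood test at a Benjamini-Hochberg adjusted p under 0.05, 3.02% upward and 6.65% downward. The median log2 fold change of the 8 genes was -0.19, beside 0.02 over all genes tested. Summed over the 10 genes, the median level was 2855 CPM (range 2667 to 2925) in the controls and 2399 CPM (range 2331 to 2558) at 30 mM. The ranges did not overlap, and no share over all genes exists for such a sum. Pkm, Aldoa and Ldha, with means of 1290, 686 and 501 CPM in the controls, made up most of it. Pdk1, Vegfa and Bnip3 had higher means at 30 mM, and the other genes lower ones.

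Pkm ranged from 1158 through a median of 1295 to 1373 CPM in the control wells and from 999 through 1047 to 1092 CPM at 30 mM. All 6 ethanol wells were thus below all 6 control wells, an absence of overlap that 4.1% of all genes tested showed in either direction and 3.1% downward. Its log2 fold change in the fit was -0.29 (SE 0.06; edgeR adjusted p = 0.000251). The call stayed past the threshold under every alternative run for this comparison, with adjusted p up to 0.00212. Reads of the near-identical pseudogene Gm6560 amounted to 9 counts over 24 wells, against 44348 for Pkm.

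Aldoa ranged from 637 through 681 to 752 CPM in the controls and from 541 through 587 to 635 CPM at 30 mM. The groups met without overlapping, since the highest ethanol well lay just under the lowest control well. The log2 fold change was -0.21 (SE 0.06; edgeR adjusted p = 0.0196). This call was the least secure of the 3: it was lost when 30 mM replicate 3, 5 or 6 or control replicate 3, 4 or 5 was left out, with adjusted p from 0.054 to 0.0874, and without the low-count filter (edgeR adjusted p = 0.0528).

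Pfkp ranged from 135 through 159 to 163 CPM in the controls and from 116 through 130 to 137 CPM at 30 mM. Only the lowest control well, replicate 1, reached into the range of the ethanol wells. The log2 fold change was -0.26 (SE 0.07; edgeR adjusted p = 0.0173), and it was lost only without control replicate 4 (edgeR adjusted p = 0.0513). Pfkp shares 748 bases with Pitrm1, which is transcribed from the opposite strand and had 675 counts over 24 wells against 4026 for Pfkp. Whether counting used the strand is not given in the sources used here. Pitrm1 itself had a log2 fold change of 0.04 at 30 mM (edgeR adjusted p = 0.918).

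Ldha had the same sign and missed the threshold. Its wells ran from 486 through 501 to 512 CPM in the controls, a narrow band, and from 389 through 439 to 513 CPM at 30 mM. A single ethanol well, replicate 2, lay just above the control range, and the others lay below the lowest control well. The log2 fold change was -0.17 (SE 0.06; edgeR adjusted p = 0.0688). It passed when 30 mM replicate 1 (0.0481) or replicate 2 (0.0146) was left out and in the joint fit of all 24 wells (0.0462, all edgeR adjusted p). Without replicate 1, the well rich in oligodendrocyte markers, Pkm had a log2 fold change of -0.29, Aldoa -0.23 and Pfkp -0.23, and all 3 passed (edgeR adjusted p = 0.000179, 0.00777 and 0.0366). With that well left out 11.5% of all genes tested passed, 4.11% upward and 7.42% downward.

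The remaining 4 tested genes did not pass at 30 mM. In counts simulated for 30 mM with 200 genes changed, 0% of log2 changes of 0.25 were recovered. In the data 1280 genes passed, Aldoa among them at -0.21, so that share does not carry over. A miss alone still does not exclude a change of that size. Slc2a1 ran from 56.9 to 79.9 CPM in the controls and from 49.9 to 65.3 CPM with ethanol, with a log2 fold change of -0.21 (95% interval -0.42 to -0.01; edgeR adjusted p = 0.197). Hk2 averaged 74.3 CPM ± 11.1 (SD, n = 6) and 72.7 CPM ± 6.67 (SD, n = 6), and the interval of its log2 fold change, -0.22 to 0.18, included changes of either sign. Pdk1 and Vegfa, by contrast, had fitted values above 0. The Pdk1 estimate was 0.15 (95% interval -0.16 to 0.47; edgeR adjusted p = 0.595) and that of Vegfa 0.16 (95% interval -0.13 to 0.45; edgeR adjusted p = 0.523). Both were more scattered with ethanol than in the controls. Pdk1 ran from 25.1 to 51.6 CPM against 22.5 to 38.8 CPM, and Vegfa from 22.2 to 46.7 CPM against 25.3 to 40.4 CPM. Without the low-count filter, Pgk1 had a log2 fold change of -0.44 (95% interval -1.17 to 0.29; edgeR adjusted p = 0.542) and Bnip3 of 0.45 (95% interval -0.40 to 1.29; edgeR adjusted p = 0.591). These intervals span changes in either direction, so the depth does not resolve them. Without 30 mM replicate 1 the estimates were -0.26 for Slc2a1, 0.01 for Hk2, 0.24 for Pdk1 and 0.14 for Vegfa, and none of these 4 genes passed (edgeR adjusted p 0.104 to 0.951).

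Markers of other cells moved with the same comparison. Of 10 mature oligodendrocyte markers tested, 8 rose at 30 mM, and of 8 astrocyte markers 5 rose, their summed range going from 3917 to 4949 CPM in the controls to 5495 to 6759 CPM. Of 10 fibroblast and mural markers 7 fell, beside 3.02% of all genes tested called higher and 6.65% lower, and their summed range went from 1006 to 1419 CPM to 474 to 581 CPM. Microglial markers summed to 161 to 282 CPM and 169 to 282 CPM, with 1 of 6 tested higher. Without 30 mM replicate 1 the counts in these 4 lists were 8, 5, 7 and 1, from the same genes. None of these lists had a marker at 0 in all wells of either group, whereas 1 of 7 endothelial markers was at 0 in both. The part of these shifts in the levels of Pkm, Aldoa and Pfkp was not tested.

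**Figure D2:**
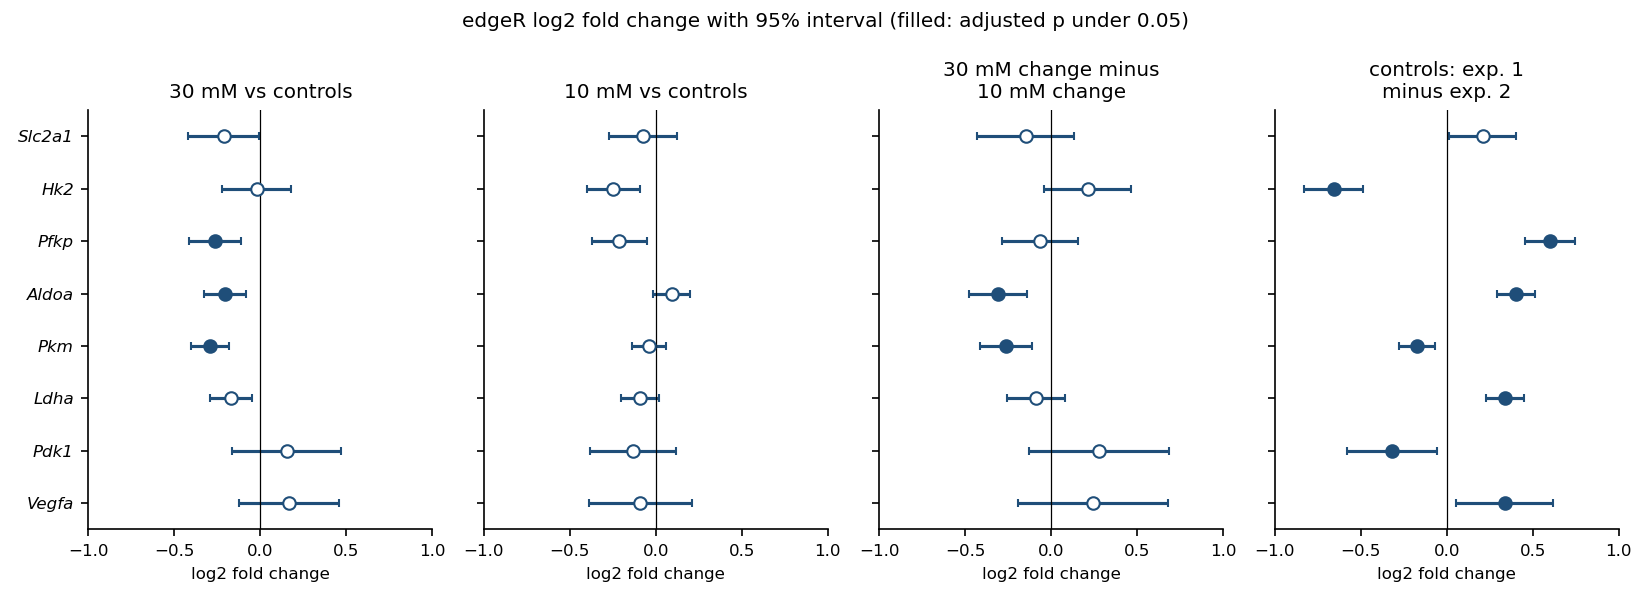
edgeR log2 fold change (horizontal axis) with its 95% interval for the 8 tested genes in 4 comparisons, filled where the adjusted p was under 0.05. Pfkp, Aldoa and Pkm are filled and below 0 at 30 mM, no gene is filled at 10 mM, and 7 of 8 are filled between the control groups.

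At 10 mM none of the 8 genes passed the test. DESeq2 and limma voom also called 0 of 8, and 2 had an unadjusted edgeR p under 0.05. Such unadjusted counts are given here and below without a share over all genes, so whether they exceed it cannot be judged. In this comparison 0.657% of 13538 genes tested passed, 0.391% upward and 0.266% downward. The wells of the groups overlapped for each of the 8 genes, and 0.813% of all genes tested had no overlap, 0.532% upward and 0.281% downward. The median log2 fold change of the 8 was -0.09, beside 0.00 over all genes tested. In counts simulated for 10 mM with known changes, the test recovered 10.5% of log2 changes of 0.25. A miss alone therefore does not exclude a change of that size. The genes with the smallest p were Hk2 and Pfkp.

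Hk2 ranged from 101 through 116 to 126 CPM in the controls of experiment 2 and from 87.9 through 98.1 to 108 CPM at 10 mM. Only the ethanol wells of replicates 2, 3 and 6, at 104 to 108 CPM, reached the control range. The log2 fold change was -0.25 (SE 0.08; edgeR adjusted p = 0.146). Pfkp ranged from 91.6 through 100 to 105 CPM in the controls and from 72.3 through 89.3 to 94.8 CPM at 10 mM, with a log2 change of -0.21 (SE 0.08; edgeR adjusted p = 0.288). Its ethanol wells of replicates 1, 2 and 3 overlapped the lowest control well alone.

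Pkm and Aldoa, which fell at 30 mM, did not pass at 10 mM. Pkm averaged 1426 CPM ± 55.6 (SD, n = 6) in the controls and 1398 CPM ± 69.8 (SD, n = 6) with ethanol, and the interval of its log2 fold change was -0.14 to 0.06. Aldoa averaged 510 CPM ± 19.0 (SD, n = 6) and 549 CPM ± 46.3 (SD, n = 6), with an interval of -0.02 to 0.20. The estimate for Ldha was -0.09 (95% interval -0.20 to 0.02), that for Slc2a1 -0.08 (-0.27 to 0.12), that for Pdk1 -0.13 (-0.38 to 0.12) and that for Vegfa -0.09 (-0.39 to 0.21). Changes of a size found at 30 mM lay outside these intervals for Pkm and Aldoa and inside the interval for Ldha.

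The difference between the doses, tested as an interaction over all 24 wells, passed for Aldoa and Pkm. In that test 3.28% of 14655 genes passed, 0.88% with a higher and 2.4% with a lower value at 30 mM. The change of Aldoa at 30 mM minus that at 10 mM was -0.31 (SE 0.08; edgeR adjusted p = 0.0246), from a decrease in experiment 1 and a fitted increase of 0.09 in experiment 2. The corresponding value for Pkm was -0.26 (SE 0.08; edgeR adjusted p = 0.0374). Both calls depended on single wells: without 30 mM replicate 3 or without 10 mM replicate 1 neither gene passed, with edgeR adjusted p of 0.0604 and 0.067 for Aldoa and 0.0599 and 0.0707 for Pkm. Pkm alone was also lost without 30 mM replicate 6, experiment 1 control replicate 1 or 2, or experiment 2 control replicate 3, 5 or 6 (edgeR adjusted p 0.0521 to 0.0641), and without the low-count filter (0.0752). The difference for Pfkp was -0.07 (95% interval -0.29 to 0.15; edgeR adjusted p = 0.803), so its change was not shown to depend on the dose. Leaving out 30 mM replicate 1 kept the calls of Aldoa and Pkm, beside 5.1% of all genes tested, 1.45% higher and 3.65% lower at 30 mM.

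The untreated wells of the experiments already differed in most of these genes. Of the 8 tested, 4 were higher in the controls of experiment 1 (Pfkp, Aldoa, Ldha and Vegfa) and 3 were lower (Hk2, Pkm and Pdk1). These counts stand beside a background of 43.6% of 13479 genes passing, 21.3% higher and 22.3% lower in experiment 1. Pfkp was 51.7% higher in experiment 1 (log2 difference 0.60, SE 0.07; edgeR adjusted p = 9.36e-11), with 135 to 163 CPM against 91.6 to 105 CPM and no overlap. Hk2 stood the other way, 36.6% lower (log2 difference -0.66, SE 0.09; edgeR adjusted p = 5.4e-10), with 61.0 to 92.6 CPM against 101 to 126 CPM and no overlap.

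Aldoa and Ldha were 32.1% and 26.5% higher in experiment 1, again without overlap, at edgeR adjusted p of 3.32e-09 and 2.94e-07. In all, 3 of the 8 genes were higher without overlap and 1 lower, against 10.9% and 8.03% of all genes tested, or 18.9% in all. Pkm was 11.2% lower in experiment 1 (edgeR adjusted p = 0.00558), and its wells overlapped; the call was lost without the low-count filter (edgeR adjusted p = 0.171). Pdk1, 19.8% lower, and Vegfa, 26.4% higher, passed narrowly (edgeR adjusted p = 0.0425 and 0.0455). DESeq2 did not call these last genes (adjusted p = 0.0945 and 0.102), nor did the joint fit of all 24 wells (edgeR adjusted p = 0.0867 and 0.0572). The call of Pdk1 was also lost without the low-count filter (edgeR adjusted p = 0.135). With a well left out, edgeR did not call Pdk1 without control replicate 1, 4 or 5 of experiment 1 or 1, 2, 4 or 5 of experiment 2 (adjusted p up to 0.189), or for Vegfa without 3, 4 or 5 of experiment 1 or 1, 3, 4 or 5 of experiment 2 (adjusted p up to 0.119). Slc2a1 had a log2 difference of 0.21 (95% interval 0.01 to 0.40; edgeR adjusted p = 0.0774) and passed without control replicate 2 or 5 of experiment 1 or without the low-count filter (edgeR adjusted p = 0.0401, 0.0441 and 0.0498).

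Markers of microglia separated the same control groups. Their summed level was 161 to 282 CPM in experiment 1 and 2003 to 2475 CPM in experiment 2, and all 8 of those tested were lower in experiment 1. Of 10 fibroblast and mural markers 3 were higher and 4 lower, and their summed range was 1006 to 1419 CPM against 622 to 799 CPM. Neuron markers summed to 291 to 381 CPM in experiment 1 and 421 to 473 CPM in experiment 2, without overlap. Those of oligodendrocyte precursors summed to 939 to 1071 CPM and 1057 to 1174 CPM, with overlap. Hk3, a hexokinase found in myeloid blood cells, had a log2 difference of -4.27 (edgeR adjusted p = 2.34e-16), and Slc16a3, the lactate exporter MCT4, one of -3.11 (edgeR adjusted p = 3.25e-19). The part of the cell mixture in the differences of Hk2, Pfkp, Aldoa and Ldha was not tested.

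Several of the 10 genes belong to families of isozymes, and the share of a gene within its family can be read inside a well without scaling between wells. The tests of these shares, 18 in all, were exact two-sided permutations of wells, with p values adjusted together by the Benjamini-Hochberg method. With 6 wells against 6 the smallest p this test can give is 0.00216.

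Aldoa made up a smaller share of aldolase counts at 30 mM. It took 65.3% ± 2.13 (SD, n = 6) of Aldoa plus Aldoc counts in the controls and 56.1% ± 1.81 (SD, n = 6) at 30 mM, a drop of 9.13 percentage points (exact permutation p = 0.00216, adjusted p = 0.00974). The lowest control well had 61.6% and the highest ethanol well 59.5%, so the groups did not overlap. Without 30 mM replicate 1 the drop was 9.21 percentage points (exact permutation, adjusted p = 0.00974). Aldoc, the aldolase typical of brain and of astrocytes, averaged 364 CPM ± 24.2 (SD, n = 6) in the controls and 462 CPM ± 29.9 (SD, n = 6) with ethanol, a rise of 0.35 on the log2 scale (edgeR adjusted p = 7.41e-05). Aldoc is also on the astrocyte marker list, of which 5 of 8 genes rose. At 10 mM the share was 63.6% in the controls and 63.0% with ethanol (exact permutation p = 0.595, adjusted p = 0.714).

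Pfkp lost share at both doses. Among Pfkl, Pfkm and Pfkp it had 45.0% ± 1.82 (SD, n = 6) in the controls of experiment 1 and 38.1% ± 1.51 (SD, n = 6) at 30 mM (exact permutation p = 0.00216, adjusted p = 0.00974). The lowest control well, replicate 1, had 41.4%, above the highest ethanol well at 39.7%. The drop without 30 mM replicate 1 was 6.38 percentage points (exact permutation, adjusted p = 0.013). In experiment 2 the share went from 36.9% ± 2.11 (SD, n = 6) to 32.6% ± 2.63 (SD, n = 6), with overlapping wells (exact permutation p = 0.0108, adjusted p = 0.0325). That result was lost in 6 of 12 fits leaving out a single well, namely without control replicate 2, 3, 4, 5 or 6 or 10 mM replicate 4, with adjusted p up to 0.0779. Pfkm and Pfkl, the muscle and liver types, had log2 fold changes of 0.13 and 0.23 at 30 mM and did not pass (edgeR adjusted p = 0.269 and 0.227).

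The makeup of hexokinase counts differed between the untreated wells of the experiments. Hk2 took 41.0% ± 4.70 (SD, n = 6) of Hk1 plus Hk2 counts in the controls of experiment 1 and 63.7% ± 3.09 (SD, n = 6) in those of experiment 2, without overlap (exact permutation p = 0.00216, adjusted p = 0.00974). Hk1, the housekeeping hexokinase, was higher in experiment 1 by 0.69 on the log2 scale (edgeR adjusted p = 2.09e-10), opposite to Hk2. At 30 mM the share was 40.7%, against 41.0% in the controls (exact permutation p = 0.892). At 10 mM it was 59.2% against 63.7% (exact permutation p = 0.0195, adjusted p = 0.0438), and this was lost in 9 of 12 fits leaving out a single well, with adjusted p up to 0.107: without control replicate 1, 2, 3, 4 or 5 or 10 mM replicate 1, 2, 4 or 5.

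No other share passed in an ethanol comparison. Ldha had 36.4% of Ldha plus Ldhb counts in the controls and 33.4% at 30 mM (exact permutation p = 0.0563, adjusted p = 0.101), and without 30 mM replicate 1 the drop was 3.9 percentage points (exact permutation, adjusted p = 0.00974). Ldhb, the subunit that favours pyruvate, averaged 880 and 884 CPM in those groups. Pdk1 had 23.6% and 22.9% of the 4 PDH kinases in experiment 1 and 37.4% and 31.6% in experiment 2, and neither ethanol comparison passed (exact permutation, adjusted p = 0.882 and 0.103). The second passed without control replicate 3 (exact permutation, adjusted p = 0.039). Between the control groups its share was lower in experiment 1, at 23.6% against 37.4% (exact permutation p = 0.00433, adjusted p = 0.0156). Slc2a1 made up 73.9% of Slc2a1 plus Slc2a3 counts in the controls of experiment 1 and 64.6% in those of experiment 2 (exact permutation p = 0.0173, adjusted p = 0.0438), a difference lost in 8 of 12 fits leaving out a single well: experiment 1 control replicate 3, 4 or 6 or experiment 2 control replicate 1, 2, 4, 5 or 6.

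**Figure D3:**
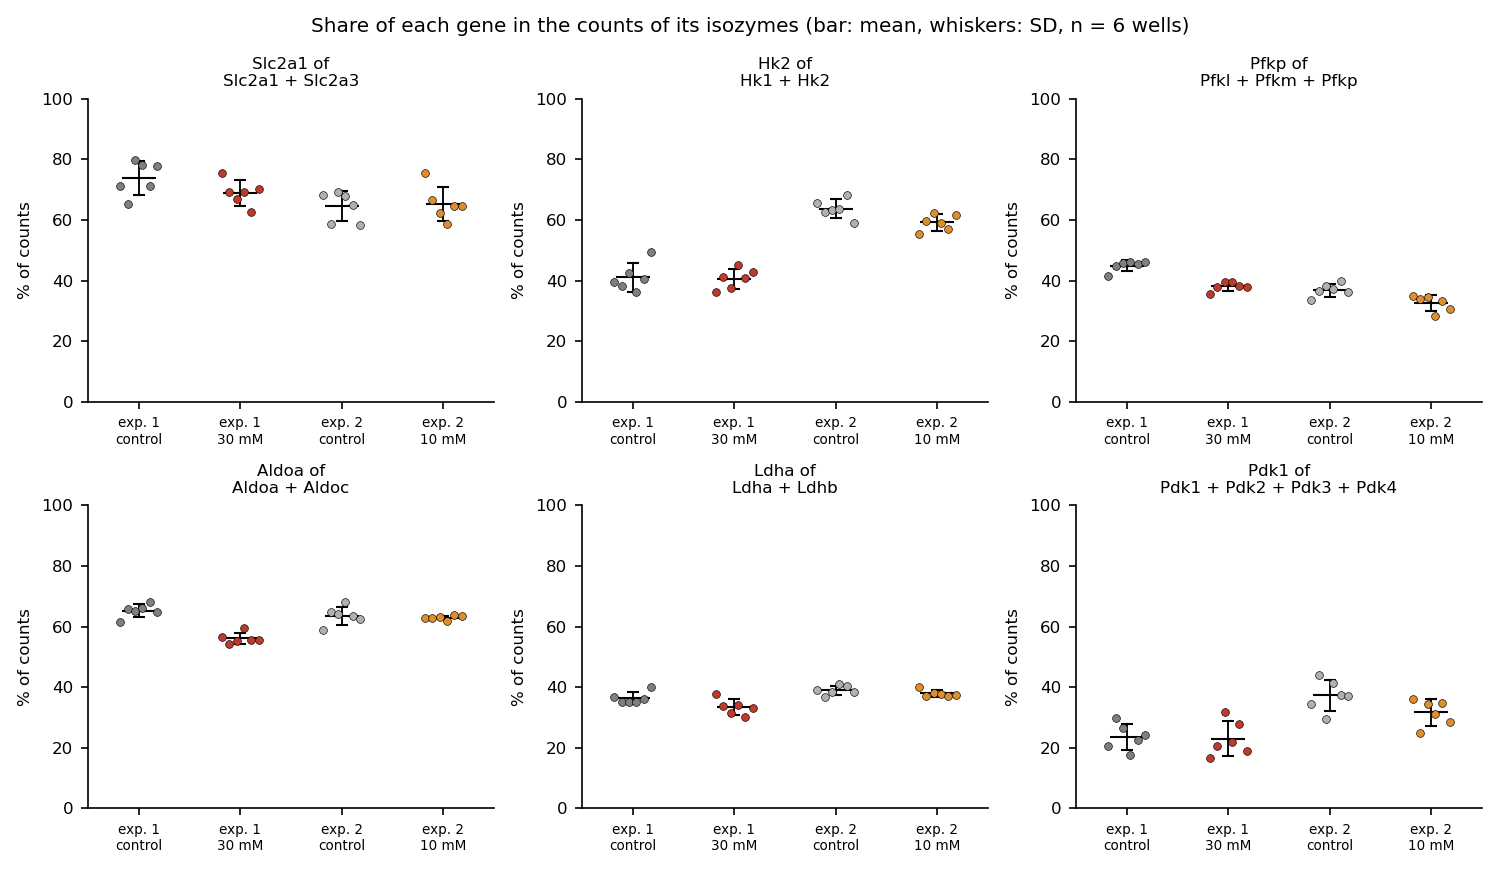
Share of each gene in the summed counts of its isozymes (vertical axis, percent) in every well of the 4 groups, with the mean as a bar and the SD as whiskers (n = 6 wells). The Aldoa and Pfkp wells at 30 mM lie wholly below the controls of their experiment, and the Hk2 wells separate by experiment.

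Along the rest of the pathway, 18 of 27 other glycolysis genes could be tested, and at 30 mM 2 rose and 1 fell, beside 3.02% and 6.65% of all genes tested. Eno1, the enolase, averaged 425 CPM ± 40.4 (SD, n = 6) in the controls and 345 CPM ± 30.1 (SD, n = 6) with ethanol, and fell by 0.30 on the log2 scale (edgeR adjusted p = 0.00255). Aldoc, described above, was among the genes that rose. Gapdh at -0.20 and Gpi1 at -0.19, the dehydrogenase and the isomerase of the pathway, did not pass (edgeR adjusted p = 0.0519 and 0.0675). Gapdh had 24313 counts over 24 wells, and 47 other genes with near-identical stretches had 2039. The part of reads shared with them in the Gapdh value was not tested. The 3 calls remained without 30 mM replicate 1, where Eno1 had a log2 fold change of -0.26 (edgeR adjusted p = 0.00522), and Gpi1 passed at -0.24 (edgeR adjusted p = 0.0119). The median over the 18 was 0.01, beside 0.02 over all genes tested. At 10 mM edgeR called 0 of 18, beside 0.657% of all genes tested, with 1 at an unadjusted p under 0.05.

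Genes handling pyruvate and lactate differed among themselves. Of 16 tested at 30 mM, 2 rose and 1 fell, beside 3.02% and 6.65% of all genes tested, and these 3 calls remained without 30 mM replicate 1. Slc16a1, the monocarboxylate transporter MCT1 through which oligodendrocytes pass lactate to axons, averaged 159 CPM ± 31.4 (SD, n = 6) in the controls and 224 CPM ± 40.5 (SD, n = 6) with ethanol, and rose by 0.50 on the log2 scale (edgeR adjusted p = 0.000332). Its change also differed between the doses by 0.45 (edgeR adjusted p = 0.0312). Pdk2, a relative of Pdk1, rose by 0.35 on the log2 scale (edgeR adjusted p = 0.0177), and Emb, a partner protein of monocarboxylate transporters, fell by 0.39 (edgeR adjusted p = 0.0437). At 10 mM edgeR called 0 of 16, beside 0.657% of all genes tested, with 3 at an unadjusted p under 0.05. Of 13 tested genes for other glucose transporters and glycogen, edgeR called 0 at 30 mM, beside 9.67% of all genes tested. For 2 of them the unadjusted p was under 0.05. Without 30 mM replicate 1 edgeR called Ugp2, which makes UDP-glucose, higher by 0.23 (edgeR adjusted p = 0.0465), beside 11.5% of all genes tested.

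**Figure D4:**
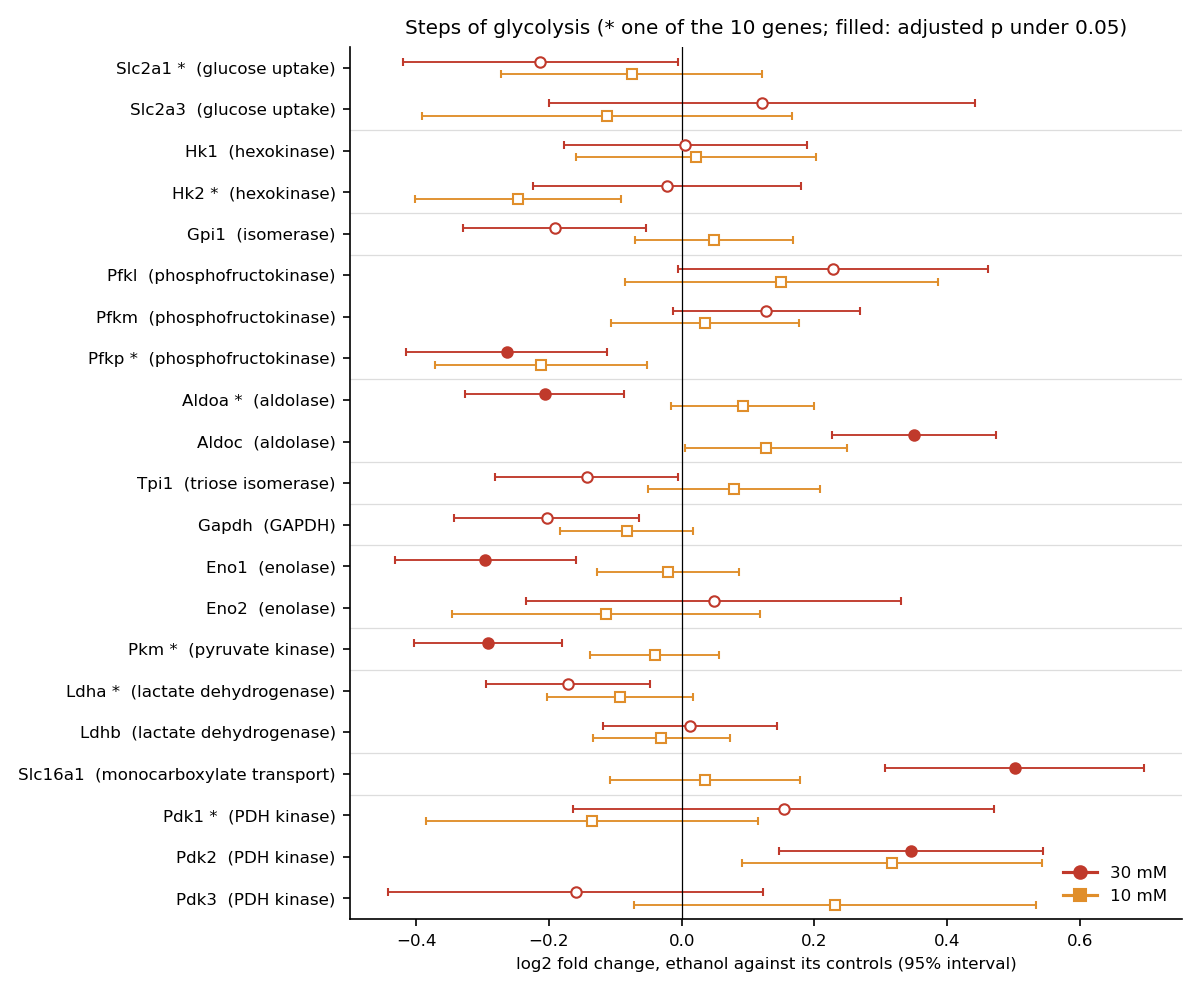
edgeR log2 fold change with ethanol (horizontal axis) and its 95% interval for genes of glycolysis and pyruvate handling, in pathway order from top to bottom, at 30 mM (red circles) and 10 mM (orange squares). Filled points passed an adjusted p of 0.05: Pfkp, Aldoa, Eno1 and Pkm below 0 and Aldoc, Slc16a1 and Pdk2 above 0 at 30 mM, and none at 10 mM.

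Other HIF target genes gave calls in both directions at 30 mM. Of 37 tested among 40 listed, 8 fell and 2 rose, beside 6.65% and 3.02% of all genes tested. Hmox1, which breaks down heme and also answers to oxidative stress, fell by 1.07 on the log2 scale, with 100 CPM ± 15.1 (SD, n = 6) in the controls, 47.0 CPM ± 14.3 (SD, n = 6) with ethanol and no overlap (edgeR adjusted p = 3.22e-08). Adm, the vessel-dilating peptide adrenomedullin, fell by 0.69 (edgeR adjusted p = 0.00423), and Egln3, a prolyl hydroxylase that marks HIF for degradation, by 0.62 (edgeR adjusted p = 0.00164). Igfbp3, a binding protein of insulin-like growth factors, fell by 0.56 (edgeR adjusted p = 1.11e-06). The genes that rose were Ak4, a mitochondrial adenylate kinase, at 0.62 (edgeR adjusted p = 0.00735) and Ddit4, an inhibitor of mTORC1 signalling, at 0.41 (edgeR adjusted p = 0.0313). Ddit4 was lost without 30 mM replicate 1, at 0.27 (edgeR adjusted p = 0.127), and the other 9 calls remained.

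The HIF subunits themselves did not pass. Hif1a averaged 128 CPM ± 8.73 (SD, n = 6) in the controls and 120 CPM ± 15.4 (SD, n = 6) at 30 mM, Epas1, which encodes HIF-2α, 205 and 212 CPM, and Arnt 29.9 CPM in both groups. Their edgeR adjusted p values were 0.616, 0.752 and 0.976. RNA does not report HIF protein, whose amount is set largely by its degradation. Of 13 subunits and regulators edgeR called 0 at 30 mM and 0 at 10 mM, beside 9.67% and 0.657% of all genes tested. At each dose 1 had an unadjusted p under 0.05. Egln3, a prolyl hydroxylase that also regulates HIF and fell at 30 mM, was counted among the targets. Vegfa's own family of relatives and receptors gave 0 calls of 6 at 30 mM, beside 9.67% of all genes tested, with 1 at an unadjusted p under 0.05.

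At 10 mM, 3 of 38 HIF targets passed, beside 0.657% of all genes tested. P4ha1, a collagen prolyl hydroxylase subunit, rose by 0.38 (edgeR adjusted p = 0.0171), Hmox1 fell by 0.31 (edgeR adjusted p = 0.0221) and Igfbp3 fell by 0.24 (edgeR adjusted p = 0.0416). The fall of Hmox1 was larger at 30 mM by 0.77 (edgeR adjusted p = 0.000497), and the change of Egln3 was lower at 30 mM than at 10 mM by 0.70 (edgeR adjusted p = 0.0347). Both differences remained without 30 mM replicate 1, and that of Igfbp3 also passed, at -0.45 (edgeR adjusted p = 0.00216) against -0.33 (edgeR adjusted p = 0.0656) with all wells. Between the control groups 16 of 37 targets were higher and 3 lower in experiment 1, beside 21.3% and 22.3% of all genes tested. Car12, a carbonic anhydrase of the cell membrane, was higher there by 1.00 on the log2 scale (edgeR adjusted p = 6.78e-15), and the HIF subunit Epas1 by 0.69 (edgeR adjusted p = 8.33e-13).

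**Figure D5:**
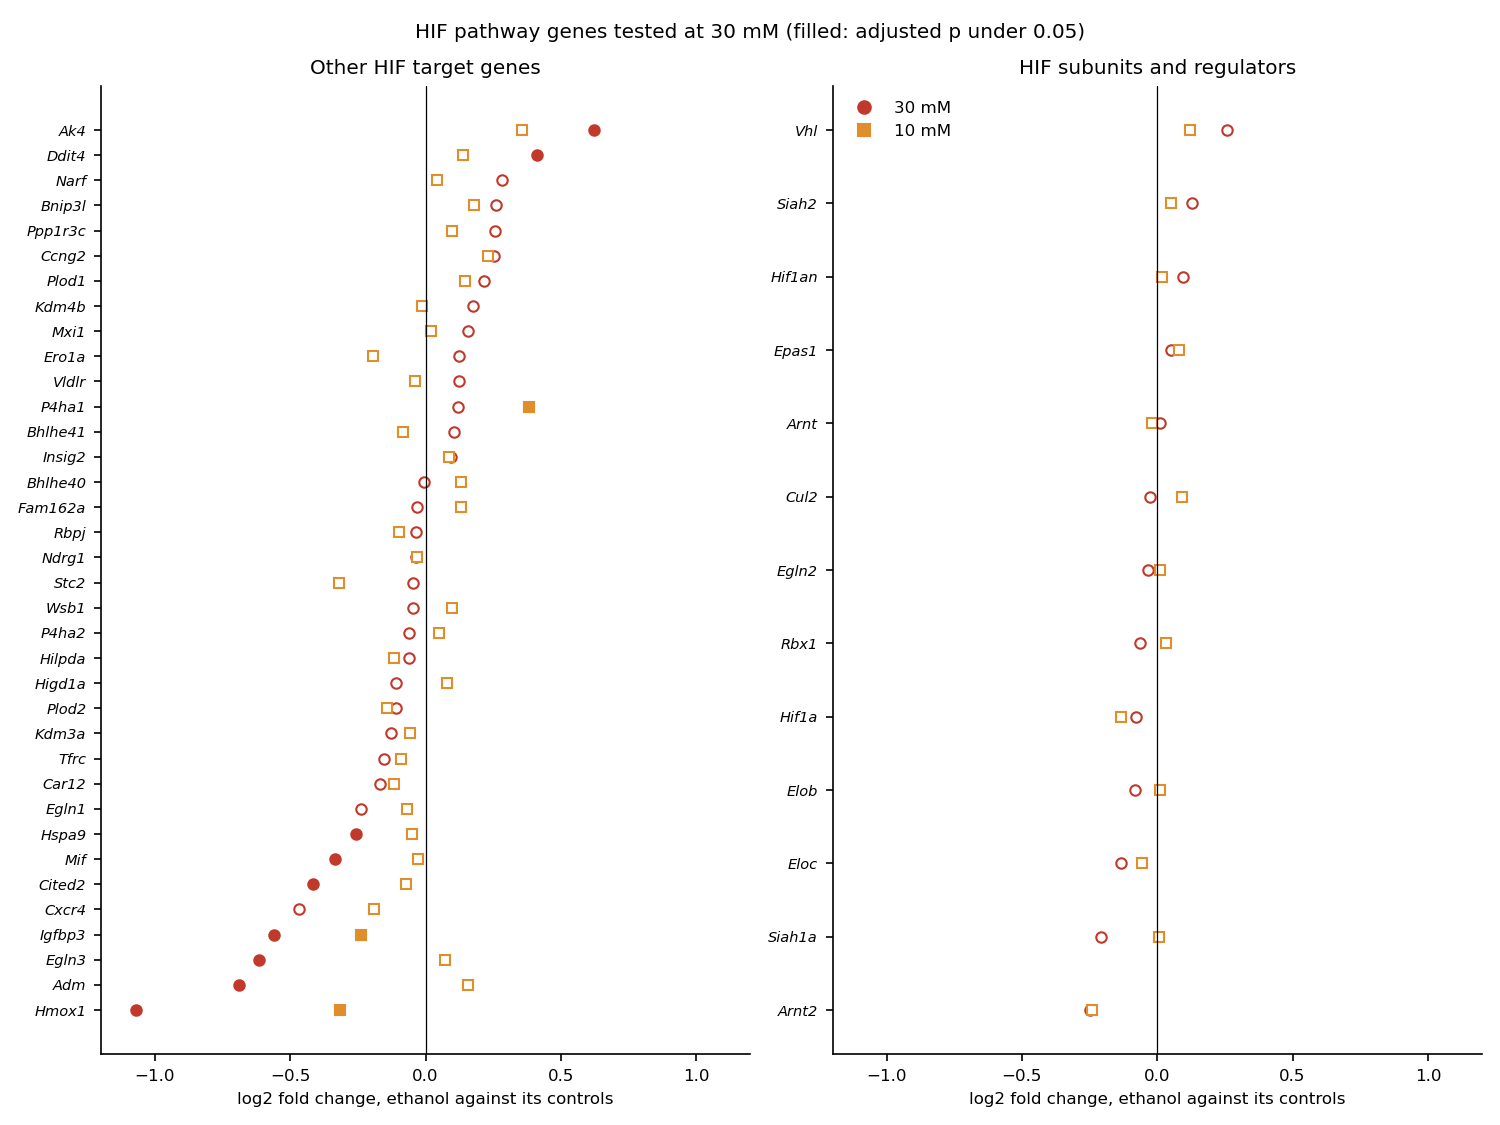
edgeR log2 fold change with ethanol (horizontal axis) for 36 other HIF target genes (left) and for HIF subunits and regulators (right) at 30 mM (red circles) and 10 mM (orange squares), filled where the adjusted p was under 0.05. Hmox1 lies lowest at -1.07 at 30 mM, and no gene on the right is filled. Egln3, which also regulates HIF, is drawn on the left and is filled at 30 mM.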

How the data were processed

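RNA from 24 wells was sequenced as 3′ tags. The authors deposited raw read counts per gene; reads were trimmed with cutadapt 1.18 and aligned with STAR to GRCm39, per the submitters' processing notes. The counting program, annotation release, strand setting and any duplicate removal are not given in the sources used here. Symbols were found for 94.1% of the 55359 identifiers. Counts were tested with edgeR 4.0.16 in R 4.3.3 (TMM scaling, filterByExpr with a minimum count of 10, quasi-likelihood F-test, Benjamini-Hochberg adjustment over all genes tested, threshold 0.05). A dose and the controls of its experiment made 1 fit, the control groups another, and the dose difference used all 24 wells. Fold changes of the text come from these fits and levels from counts scaled over all wells.

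Genes of 1 kind were grouped in 8 lists beside the 10 genes. All 10 genes are named in every comparison; other genes are named if among the 4 largest calls in a direction of a list, in an isozyme family, or Hif1a, Epas1 or Arnt. Genes most like Pgk1 and Bnip3 are not given, since both failed the filter. Results of 2 genes that count in the lists are not reported here. The 10 genes and the lists were chosen with earlier results of these data known.

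Isozyme shares were tested in SciPy 1.17.1. Near-identical transcripts (at least 95 bases at 97% identity) were found with BLAST 2.17.0 in GENCODE M21, and promoters come from RefSeq. The longest stretch before the start that GENCODE does not annotate as untranslated is shown; that of Pkm held no match, so 30 bases around its match are shown instead. Alternatives were DESeq2 1.42.0 or its size factors, limma 3.58.1 (voom), no filter, a joint fit, a replicate block, each well left out, and medians for shares. Fits of the lists without 30 mM replicate 1 were added after seeing the data, and genes called in them alone (Gpi1, Ugp2, Calcoco1, Tkt and Taldo1, and Igfbp3 for the dose difference) were named after their values were seen. The scripts were tested on simulated counts with 200 genes changed. Log2 changes of 0.25 were recovered in 0% of cases for 30 mM and 10.5% for 10 mM. Of the calls made there, 100% and 12.5% were false. For changes of 0.5 the recovery was 70% and 67.5%. These shares hold for 200 changed genes, while 1280 genes passed at 30 mM in the data. Changes as small as most of those fitted for the 10 genes could still be missed. Over 60 pairs of wells within a group, chi-square per degree of freedom ran from 1.07 to 2.88, where counting noise alone gives about 1. The most alike pair thus lay little above counting noise, and no cutoff was set. Since nothing says that wells came from separate pups, p-values measure only the spread between wells.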

Additional observations from a re-analysis of the deposited data

Results flagged for a closer look

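In 64 series of 6 wells examined for a value far from the others, 4 stood out, where chance gives about 1 in 20 (3.2 of 64). The Pfkp share of phosphofructokinase counts in experiment 1 control replicate 1 was 41.4%, while the other 5 control wells lay between 45.0% and 46.2%. The Ldha share of lactate dehydrogenase counts was 40.2% in experiment 1 control replicate 6, beside 35.0% to 36.6% in the others, and 40.2% in 10 mM replicate 1, beside 37.0% to 38.0%. Bnip3 reached 8.1 CPM in 30 mM replicate 6, while the other wells of that group lay between 2.46 and 4.31 CPM. The changes of Aldoa and Pkm differed between the doses, by -0.31 and -0.26 on the log2 scale (edgeR adjusted p = 0.0246 and 0.0374).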

How the results depend on the processing

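Leaving out each well in turn gave 1 to 4 of the 10 genes called at 30 mM, 0 at 10 mM, 0 to 2 for the dose difference and 5 to 8 between the controls. Pkm alone stayed called at 30 mM without control replicate 4, and no call of the dose difference was left without 30 mM replicate 3 or 10 mM replicate 1. Without the low-count filter 1 gene, Aldoa, kept the dose difference; the cause was not tested. Other settings gave 2 to 4, 0, 2 and 5 to 7. With the replicate block the counts were 3, 0, 2 and 6, with Vegfa lost between the controls (edgeR adjusted p = 0.0521). Correlations of same-numbered wells ran from -0.166 to 0.233 at 30 mM, with 1 of 6 pairs over 0.1, and from -0.0379 to 0.0369 at 10 mM. At 30 mM, at 10 mM and between the controls, 1, 0 and 1 of 6 wells were most like their own number. So few pairs cannot show how wells were numbered, and the numbers are used here as names.

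Of 480 single-gene values with a well left out, 440 kept direction and side of the threshold, 31 lost and 4 gained the call and 5 changed sign, and none of 183 under other settings changed sign. The sign changes were all near 0 and never called. With a well left out, Hk2 at 30 mM ranged from -0.0724 to 0.0478, above 0 without 30 mM replicate 1 (0.0138) or 5 (0.0093) or control replicate 6, and Vegfa at 10 mM from -0.1469 to 0.0352, above 0 without 10 mM replicate 1 (0.0029) or control replicate 2. Shares in percentage points that changed sign were Pdk1 at 30 mM (-2.4 to 0.636, with 0.628 and 0.204 without 30 mM replicate 1 or 6), Hk2 at 30 mM (-1.35 to 1.35, with 0.519 and 0.27 without 30 mM replicate 1 or 3), Slc2a1 at 10 mM (-1.25 to 2.1, with -0.434 and -0.462 without control replicate 2 or 6) and Aldoa at 10 mM (-1.59 to 0.223). With medians in place of means, 2 of the 18 shares changed sign, Slc2a1 at 10 mM (-1.87 against 0.766) and Hk2 at 30 mM (1.06 against -0.356). Over all genes, 89 passed at 10 mM, 39 with DESeq2, 21 in the joint fit and 37 to 95 with a well left out. At these depths Pgk1 and Bnip3 could not be resolved.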

Other observations

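The pentose phosphate pathway, which branches from glycolysis after the hexokinase step and supplies NADPH and ribose, had all 7 of its tested genes fitted below 0 at 30 mM, with 2 past the threshold, beside 6.65% of all genes tested called lower. G6pdx, the entry dehydrogenase, averaged 140 CPM ± 14.5 (SD, n = 6) in the controls and 103 CPM ± 15.2 (SD, n = 6) with ethanol, and fell by 0.42 on the log2 scale (edgeR adjusted p = 0.000876). Pgd, the next dehydrogenase, fell by 0.38 (edgeR adjusted p = 0.00192). At 10 mM edgeR called 0 of 7, beside 0.657% of all genes tested, with 1 at an unadjusted p under 0.05. G6pdx had a log2 fold change of -0.11 at that dose (edgeR adjusted p = 0.699). The dose difference was called by edgeR for 0 of the 7, beside 3.28% of all genes tested, with 4 at an unadjusted p under 0.05. Without the well labelled 30 mM replicate 1, which was rich in oligodendrocyte markers, 4 of the 7 passed downward at 30 mM, beside 7.42% of all genes tested, and 3 passed for the dose difference, beside 3.65%. Tkt, the transketolase, then had a log2 fold change of -0.41 at 30 mM (edgeR adjusted p = 0.00234) and Taldo1, the transaldolase, one of -0.27 (edgeR adjusted p = 0.00152), against -0.29 and -0.18 with all wells (edgeR adjusted p = 0.0706 and 0.0966).

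Of 11 mitophagy genes, 2 rose and 2 fell at 30 mM, beside 3.02% and 6.65% of all genes tested. Pink1, the kinase that marks damaged mitochondria, rose by 0.25 (edgeR adjusted p = 0.0245), and Map1lc3b, a protein of the autophagosome membrane, by 0.30 (edgeR adjusted p = 0.00284). Sqstm1, a cargo receptor of autophagy, fell by 0.23 (edgeR adjusted p = 0.0199), and Phb2, a prohibitin of the inner mitochondrial membrane, by 0.28 (edgeR adjusted p = 0.0109). Bnip3l, the relative of Bnip3 that was well counted here, had a log2 fold change of 0.26 (edgeR adjusted p = 0.0614). Without 30 mM replicate 1 these 4 calls remained and Calcoco1, an autophagy receptor, rose by 0.38 (edgeR adjusted p = 0.0302). At 10 mM edgeR called 0 of 11, beside 0.657% of all genes tested, with 2 at an unadjusted p under 0.05.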
